A study of Mus musculus with 4 samples.

Results

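The 1000 most densely accessible peaks of young bone mesenchymal stem cells (MSCs) were described here, out of 102763 eligible peaks and 117282 peaks in all. They were chosen by their values in the young samples: among autosomal peaks with a width between 500 and 7900 bp, the mean value of both young samples was divided by the width and the 1000 highest were kept. The choice is therefore no finding, and the old samples, which it did not use, carry the independent reading. ATAC-seq was performed on C57BL6/N MSCs from old mice (18 to 22 months of age) and from young mice (3 to 5 months of age), with 2 samples per group, all cultured at 2% O2 only. No allele or agent differed between the groups according to the labels. The study sorted its MSCs after outgrowth from bone fragments in culture, as cells with CD140a and Sca-1 and without CD45 and Ter-119, so the samples are cultured, sorted cells of bulk populations. The labels do not say whether a sample came from 1 animal or from several.

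In ATAC-seq a transposase inserts sequencing adapters where DNA is not wrapped tightly in nucleosomes, so that many inserts per base mark a short, open stretch. Promoters of genes that nearly every cell uses are typically of this kind: they are rich in GC and in CpG, are kept free of nucleosomes by factors such as Sp and Klf proteins, ETS proteins and NF-Y, and often drive a gene in each direction. Enhancers of a cell type are more often weaker, poorer in CpG, and carry sites of AP-1, TEAD or RUNX factors. Dense signal also appears where the genome holds many copies of a sequence and the reference holds few, such as ribosomal DNA, satellites and nuclear copies of mitochondrial DNA.

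The windows upstream of the start sites show what dense promoters looked like. They are given for 8 of the densest promoter members, those whose window lies inside the peak and holds no annotated exon. Each window of 150 bp ends at the base before the GENCODE start site nearest the peak centre and was read from the RefSeq copy of GRCm38 (mm10) on the strand of the gene. Capitals mark the GC box GGGCGG of Sp and Klf factors, the CCAAT box of NF-Y, the ETS site CCGGAAG, the YY1 site AAGATGGCG, the cAMP response element TGACGTCA and the NRF1 site GCGCATGCG on either strand.
Evi5l, chr8:4166417-4166566, plus strand: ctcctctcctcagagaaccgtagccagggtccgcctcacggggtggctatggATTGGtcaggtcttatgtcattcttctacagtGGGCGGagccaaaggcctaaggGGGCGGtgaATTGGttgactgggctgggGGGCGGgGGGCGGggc
Ppp2r3d, chr9:124424155-124424304, minus strand: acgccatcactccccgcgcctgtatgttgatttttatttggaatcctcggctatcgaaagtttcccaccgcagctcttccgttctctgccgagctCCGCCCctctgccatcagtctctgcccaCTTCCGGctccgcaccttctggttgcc
Mon1b, chr8:113635437-113635586, plus strand: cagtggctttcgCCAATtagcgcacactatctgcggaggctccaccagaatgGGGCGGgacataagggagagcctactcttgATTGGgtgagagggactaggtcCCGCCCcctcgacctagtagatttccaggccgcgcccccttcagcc
Leprot, chr4:101647568-101647717, plus strand: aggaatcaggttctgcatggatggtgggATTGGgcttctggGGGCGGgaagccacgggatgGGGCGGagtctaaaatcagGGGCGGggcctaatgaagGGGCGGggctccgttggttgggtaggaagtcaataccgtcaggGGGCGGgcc
Aco1, chr4:40142931-40143080, plus strand: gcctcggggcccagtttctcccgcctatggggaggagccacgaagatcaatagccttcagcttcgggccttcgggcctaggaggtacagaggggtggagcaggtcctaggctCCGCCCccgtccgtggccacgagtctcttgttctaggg
9430038I01Rik, chr7:137410763-137410912, minus strand: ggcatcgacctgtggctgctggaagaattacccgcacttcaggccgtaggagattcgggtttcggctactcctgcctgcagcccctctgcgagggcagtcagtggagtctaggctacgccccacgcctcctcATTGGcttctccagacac
Osbp, chr19:11965791-11965940, plus strand: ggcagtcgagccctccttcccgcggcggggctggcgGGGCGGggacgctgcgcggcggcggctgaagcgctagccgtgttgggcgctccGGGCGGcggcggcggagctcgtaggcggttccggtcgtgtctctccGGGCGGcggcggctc
G3bp1, chr11:55469535-55469684, plus strand: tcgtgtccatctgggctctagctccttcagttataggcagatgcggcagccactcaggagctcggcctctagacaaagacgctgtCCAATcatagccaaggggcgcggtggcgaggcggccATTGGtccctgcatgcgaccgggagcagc
The windows of Evi5l and Leprot held 6 of the motifs each, Mon1b held 4, Osbp held 3, Ppp2r3d and G3bp1 held 2 each, and Aco1 and 9430038I01Rik held 1 each. Their GC content lay between 58% (Ppp2r3d) and 80% (Osbp, with 27 CpG).

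Density is given throughout as the deposited value per kb of peak. The deposited values were whole multiples of one step in every sample (100% of values) and were not divided by width. A density is therefore read as the number of counts per kb and per 10000000 counts of the library. On that reading the steps gave library totals between 28259470 and 32559794 counts, which were not measured otherwise. A value between 0.921 and 1.06 stood for 3 counts. Over the 1000 members, density in young replicate 1 ran from 69.3 to 829 with a median of 97.9, and in young replicate 2 from 82.4 to 795 with a median of 107. In the old samples the median was 68.2 in replicate 1 (range 23.1 to 722) and 79.9 in replicate 2 (range 18.9 to 1597). The medians over all eligible peaks were 11.5 and 14.2 in old replicates 1 and 2 and 14.8 and 16.1 in young replicates 1 and 2. In each old sample the members therefore stood well above the bulk of the eligible peaks.

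**Figure D1:**
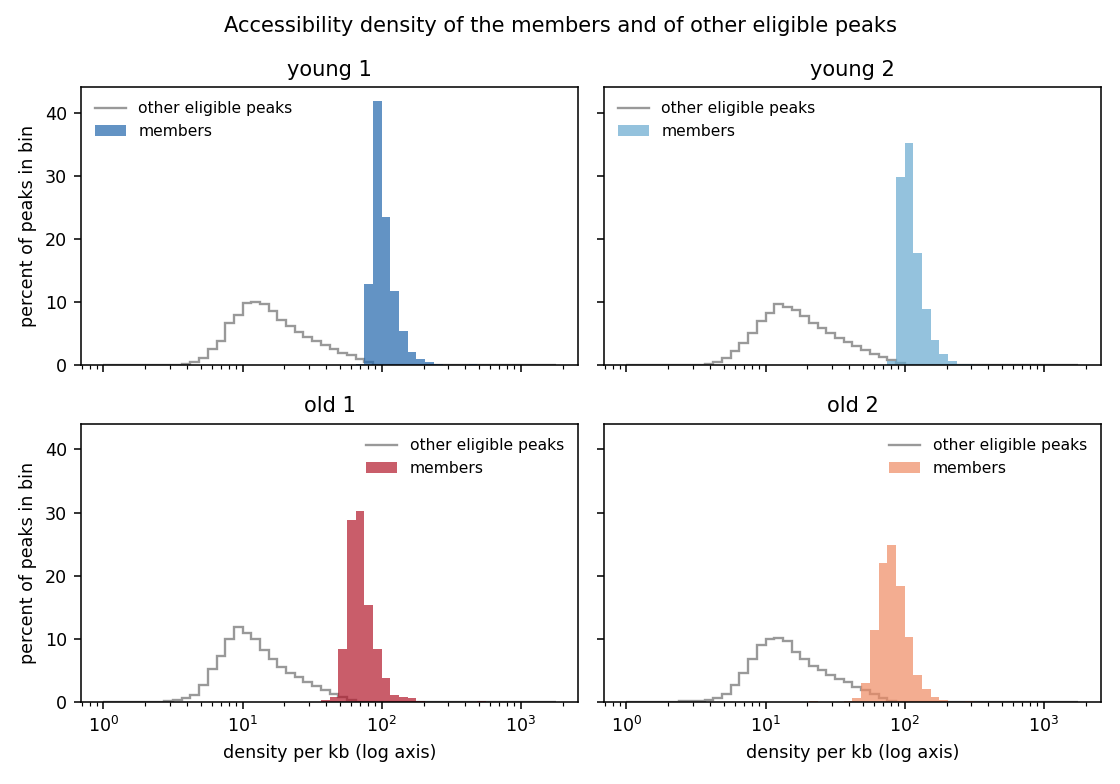
Density per kb (log axis) of the 1000 members (filled) and of the other eligible peaks (grey line), as the percent of peaks per bin, in each of the 4 samples. The members were cut off in young MSCs by the choice, and in old replicates 1 and 2 they spread around medians of 68.2 and 79.9 with few members among the weak peaks.

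At the limit of the choice the values ran on without a gap. The 5 members just inside had mean young densities of about 88.6 to 88.7, among them the promoters of Ranbp10 and Tsnaxip1, of Ttll5 and Erg28 and of Ptchd4, and a peak 374418 bp from Cited2. The 5 peaks just outside, with densities of at most 88.4, lay at the promoters of Ccne1 (cyclin E1), Nbn (a DNA break sensor) and Xrn2 (a nuclear exoribonuclease), 9749 bp from Sfta2 and 103351 bp from Inhba. The members covered 2676100 bp, 1.53% of the bases of eligible peaks. They were wide for eligible peaks, with a median of 2500 bp against 1300 bp, and 11 of them (1.10%) were under 1000 bp wide against 33.5% of the eligible peaks.

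The densest members were a mixture of repeated DNA and promoters. The first in rank, on chromosome 17 from 39842701 to 39849100, held an annotated ribosomal RNA gene and 3 lincRNA genes, Gm42418, AY036118 and Gm26917. Its density was 829 and 678 in young replicates 1 and 2, 722 in old replicate 1 and 1597 in old replicate 2, so that one old sample lay far above the other 3. The second, on chromosome 1 from 24612501 to 24613400, held mitochondrial-like pseudogenes and measured 436 and 795 in young replicates 1 and 2 and 488 and 294 in old replicates 1 and 2. The third, on chromosome 2 from 98662001 to 98667600 at the predicted genes Gm10800 and Gm10801, measured 431 and 442 in young replicates 1 and 2 and 515 and 481 in old replicates 1 and 2. Both old values lay above both young values as deposited there, as they did at the members in Cdk8 and near Rpusd4. The young values fixed the choice, so nothing is read from this.

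Promoters of coding genes followed, with a few other members among them. The copy number of these promoters in the genome was not tested. Evi5l, a GTPase-activating protein for Rab proteins, measured 242 and 284 in young replicates 1 and 2 and 173 and 183 in old replicates 1 and 2. Ppp2r3d, a regulatory subunit of protein phosphatase PP2A, measured 238 and 277 in young and 171 and 169 in old. Lrif1, a partner of heterochromatin protein HP1, measured 232 and 267 in young and 169 and 168 in old. In all 3 both old values lay below both young values as deposited, as they did at 889 of the 1000 members. The young values fixed the choice, so nothing is read from this. In old MSCs these 3 promoters still ranked between 7 and 17 among the 102763 eligible peaks. Mon1b, part of the exchange factor of Rab7, measured 222 and 239 in young and 147 and 172 in old. Sp4, itself a factor that binds GC boxes, measured 198 and 220 in young and 141 and 129 in old. The promoter shared by Kbtbd3 and Aasdhppt, an enzyme that attaches phosphopantetheine to carrier proteins, measured 206 and 201 in young and 141 and 131 in old. Zfp788, a zinc finger protein, measured 217 and 223 in young and 138 and 161 in old. A member within the lincRNA 4932412D23Rik and the gene of the repressor Zbtb20, 30445 bp from its nearest coding start, measured 236 and 251 in young and 157 and 199 in old. Other dense members farther than 10 kb from a coding start lay at noncoding RNA genes, Gm7461 and Gm6410 (185 and 206 in young, 127 and 133 in old) and the lincRNA Gm26901 (167 and 186 in young, 122 and 112 in old).

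Whether the density held was read in samples that the choice did not use. Of the 1000 members, 826 were among the 1000 densest eligible peaks of old replicate 1 (82.6%, 95% Wilson interval 80.1% to 84.8%) and 627 among those of old replicate 2 (62.7%, 59.7% to 65.6%). The intervals cover counting error only. Both old samples kept 565 members in their top 1000, neither kept 112, and the mean of both kept 786. The median rank was 531 in old replicate 1 and 689 in old replicate 2. Nearly every member stayed among the dense peaks: 994 were in the top 10% of eligible peaks and 983 in the top 5% in both old samples. The first 100 members had 100 and 99 in the top 1000 of old replicates 1 and 2, whereas the last 500 had 336 and 213, as the limit lies inside a continuous range.

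The same reading between replicates of 1 age gives the measure of these shares. Peaks chosen on young replicate 1 alone were in the top 1000 of young replicate 2 in 83.9% (81.5% to 86.0%), of old replicate 1 in 79.6% (77.0% to 82.0%) and of old replicate 2 in 64.0% (61.0% to 66.9%). Chosen on young replicate 2 alone, the shares were 83.9% in young replicate 1, 81.2% in old replicate 1 and 60.2% in old replicate 2. The old samples shared 60.3% of their top 1000 with each other. Old replicate 1 was thus as near to either young sample as the young samples were to each other within 5 percentage points, and old replicate 2 stood apart from all 3 other samples. The loss of members from the top 1000 of old MSCs was not larger than the spread between the old replicates. Across the members, density correlated with Spearman's rho of 0.768 between young samples, 0.550 between old samples, 0.731 and 0.783 between old replicate 1 and young replicates 1 and 2, and 0.656 and 0.538 between old replicate 2 and young replicates 1 and 2 (across 1000 peaks, as a description). The peaks of a library share its depth and base composition.

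**Figure D2:**
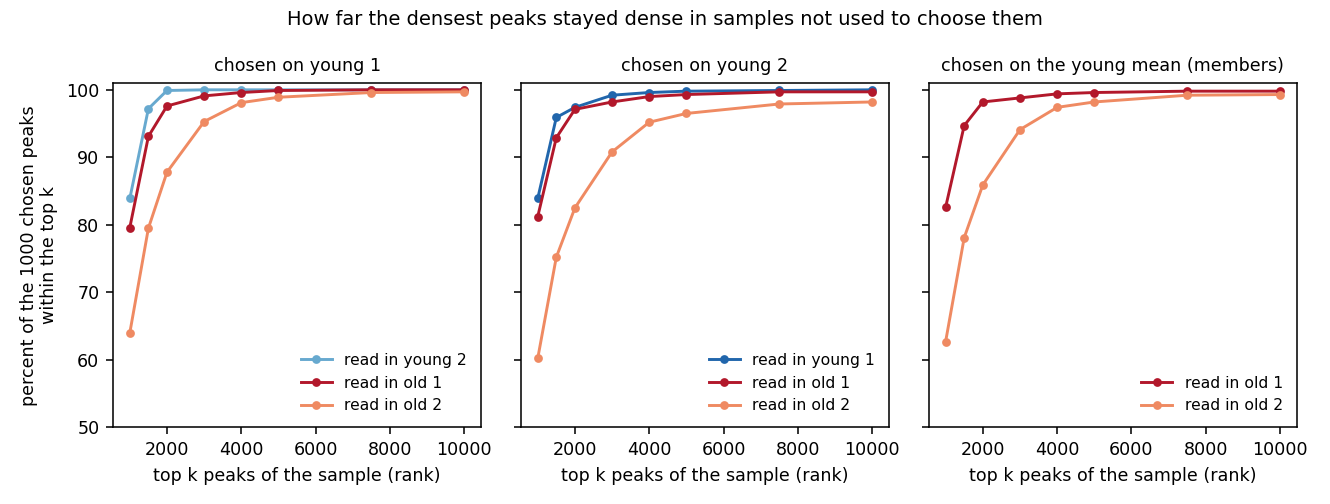
Percent of the 1000 chosen peaks (y axis) found among the top k peaks of a sample that was not used to choose them (x axis, rank), with 1 line per sample. Within the top 1000, the members held 82.6% in old replicate 1 and 62.7% in old replicate 2, and in the panels chosen on 1 young sample old replicate 1 ran close to the other young sample.

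The level of the members was lower in old MSCs on the deposited scale. The median log2 ratio was -0.55 and -0.68 for old replicate 1 against young replicates 1 and 2, and -0.34 and -0.46 for old replicate 2 against young replicates 1 and 2. Over all eligible peaks the same medians were -0.37, -0.47, -0.06 and -0.16, so the members lay below the eligible peaks in each of the 4 pairs. Between replicates the median was 0.12 for young replicate 2 against young replicate 1 and 0.19 for old replicate 2 against old replicate 1. With both samples of a group averaged, the median was -0.50 over the members and -0.26 over the eligible peaks. After division by RLE factors (each sample's median ratio to the mean peak profile, taken geometrically) the median over all peaks moved from -0.27 to 0.00 and that of the members to -0.21. In a bulk sample, fewer cells with an open site and less opening per cell cannot be told apart.

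Because young values chose the members, a lower level in old MSCs is in part built in, and the median was therefore also taken between samples that took no part in a choice. For peaks chosen on young replicate 1 and measured against young replicate 2, it was -0.67 in old replicate 1 and -0.44 in old replicate 2. For peaks chosen on young replicate 2 and measured against young replicate 1, it was -0.54 and -0.35. A choice on 1 old sample, added after the data were seen, gave the reverse reading. The densest 1000 of old replicate 1 had a median of -0.32 and -0.45 in old replicate 2 against young replicates 1 and 2, and the densest 1000 of old replicate 2 had -0.56 and -0.66 in old replicate 1. In all 8 readings the densest peaks lay below the median of the eligible peaks in the same pair of samples, whichever age had chosen them. These readings share samples and are not independent of each other.

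Values of the libraries moved with this difference. All peaks together held 43.8% and 50.3% of the library scale in old replicates 1 and 2 and 57.5% and 62.9% in young replicates 1 and 2. The members held 2.00% and 2.39% in old and 2.88% and 3.13% in young, and, of the summed values of eligible peaks alone, 6.39% and 6.0% in old against 6.82% and 6.84% in young. Base composition moved between replicates: in the 250 members richest in GC, the median log2 ratio of old replicate 2 to old replicate 1 was 0.32, and in the 250 poorest 0.07. For young replicate 2 against young replicate 1 the medians were 0.07 and 0.21 in the same members. The 49 members on chromosome 11 had a median ratio of old replicate 2 to old replicate 1 of 0.33, against 0.19 for the other 951, and the eligible peaks there stood apart likewise (0.42 against 0.28). The part of these values in the members' difference was not tested.

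Peak by peak, the values of both old samples lay below both young samples at 662 members (66.2%) after RLE scaling, beside 24.2% of all 117282 peaks, and above them at 18 members (1.80%), beside 23.2% of all peaks. The young values fixed the choice, so nothing is read from these counts or from those that follow. With limma on log2 values, 2 members had lower values in old MSCs at an adjusted p under 0.01 (0.0307% of all peaks passed in that direction) and 0 had higher values (0.0256% of all peaks). At an unadjusted p under 0.05, 245 members were lower (8.87% of all peaks) and 9 were higher (7.49% of all peaks). Limma-voom on the recovered counts, added after the data were seen, called 6 lower (0.0810% of all peaks) and 1 higher (0.0418% of all peaks). The counts changed when a sample was left out, in fits where the lone sample of a group is assumed to vary like the other group. Without old replicate 1 they were 353 lower (5.52% of all peaks) and 17 higher (3.31% of all peaks), and without old replicate 2 they were 28 (1.00%) and 8 (0.428%). Without young replicate 1 or without young replicate 2, almost no peak of the whole series passed, so the members are not read there.

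The members with the lowest ratios of old to young were peaks away from promoters. Both that passed are shown by their central 200 bp, plus strand, with capitals for any of the 11 motifs searched.
First, chr5:44427300-44427499: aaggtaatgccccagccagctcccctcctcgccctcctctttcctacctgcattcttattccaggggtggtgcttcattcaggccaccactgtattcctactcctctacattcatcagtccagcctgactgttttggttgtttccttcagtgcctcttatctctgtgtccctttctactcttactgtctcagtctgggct
Second, chr13:70449150-70449349: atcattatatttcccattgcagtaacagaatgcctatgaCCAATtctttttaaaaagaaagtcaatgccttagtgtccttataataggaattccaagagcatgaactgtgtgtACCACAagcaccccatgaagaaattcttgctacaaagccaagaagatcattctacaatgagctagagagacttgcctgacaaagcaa
The first lies at the lincRNA gene Gm36017, 200479 bp from the nearest coding start (Tapt1), and the second is intergenic, 146753 bp from Ice1. The first held none of the motifs and the second a CCAAT box and a RUNX site. Density at the first was 81.4 and 109 in young replicates 1 and 2 and 23.9 and 21.0 in old replicates 1 and 2, with a log2 fold change of -1.71 (SE 0.25) and ranks of 15049 and 29476 in old MSCs. At the second it was 79.97 and 108.8 in young and 23.1 and 21.5 in old, with a log2 fold change of -1.70 (SE 0.26). The other 3 members of lowest old to young ratio were intergenic too, 84582 bp from Pabpc4l, 177904 bp from Pdzrn3 and 9441 bp from Tmem123. The member near Pabpc4l measured 97.9 and 112 in young and 43.1 and 18.9 in old, which gave it the lowest rank of all members in old replicate 2, 34243. The lowest ranks of old replicate 1 also took in a member 115133 bp from Spef2, with 82.6 and 97.2 in young and 37.5 and 29.1 in old. None of these members was a promoter.

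The highest ratios of old to young were carried by old replicate 2 more than by old replicate 1. A member in an intron of Cdk8, a kinase of the Mediator complex, measured 153 and 130 in young replicates 1 and 2, 183 in old replicate 1 and 262 in old replicate 2. A member 88220 bp from Axin2 measured 193 and 157 in young, 185 in old replicate 1 and 341 in old replicate 2, and one 109295 bp from Gm8797 measured 171 and 152 in young and 165 and 307 in old. In both, old replicate 1 lay between the young samples. The member in the lincRNA Gm33838, 35736 bp from Rpusd4, measured 136 and 132 in young and 143 and 166 in old. With the ribosomal member on chromosome 17, these were the 5 highest.

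**Figure D3:**
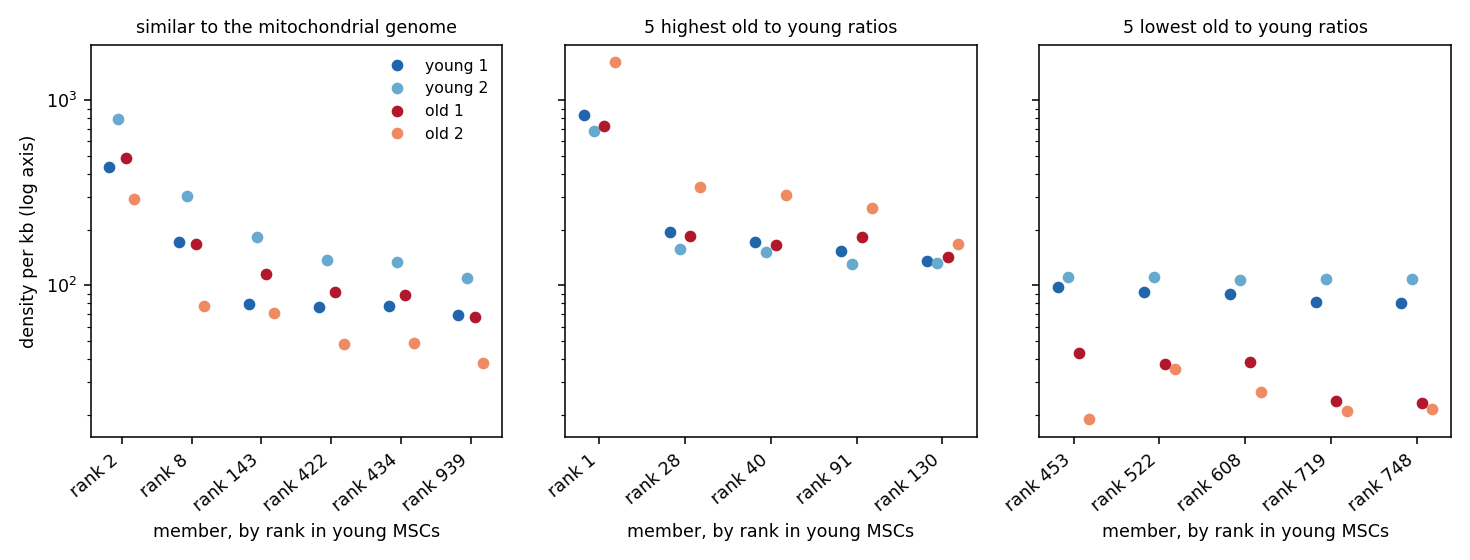
Density per kb (log axis) in each of the 4 samples for the 6 members similar to the mitochondrial genome, the 5 members with the highest and the 5 with the lowest ratio of old to young means, each named by its rank in young MSCs. Young replicate 2 was highest and old replicate 2 lowest in all 6 mitochondrial-like members, old replicate 2 was highest in the 5 of high ratio, and the old samples lay below the young ones in the 5 of low ratio.

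Nuclear copies of mitochondrial DNA made up 6 members, out of 32 such eligible peaks (0.0311% of eligible peaks, 0.60% of members), when an alignment of at least 100 bp at 80% identity was asked for. They lie on chromosomes 1 (at both 24612501 and 132790701), 2, 4, 5 and 10. The member on chromosome 10 shares 715 bp at 84.9% identity with the mitochondrial chromosome, and a stretch of 100 bp, with 12 differing bases in capitals, shows how alike they are.
Chromosome 10 member, chr10:85025934-85026033, plus strand: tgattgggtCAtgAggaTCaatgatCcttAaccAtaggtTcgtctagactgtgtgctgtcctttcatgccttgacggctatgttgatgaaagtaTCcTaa
Mitochondrial chromosome, chrM:15926-16025, minus strand: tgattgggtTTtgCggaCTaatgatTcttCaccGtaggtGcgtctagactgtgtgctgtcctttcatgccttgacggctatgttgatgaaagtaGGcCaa
The chromosome 1 member of second rank aligned over 900 bp at 99.8%, so its sequence hardly differs from the mitochondrial one. Density at the chromosome 10 member was 172 and 305 in young replicates 1 and 2 and 168 and 77.0 in old replicates 1 and 2, so old replicate 1 lay close to young replicate 1 while the replicates of each age lay apart. Summed over the 6 members the deposited value was 1227 and 2195 in young replicates 1 and 2 and 1378 and 761 in old replicates 1 and 2. The 3 peaks of the mitochondrial chromosome held 7.77% and 9.13% of the library scale in young replicates 1 and 2 and 6.86% and 3.28% in old, with old replicate 2 lowest and young replicate 2 highest in both. Whether the nuclear or the mitochondrial copies gave this signal was not tested.

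A second repeated sequence joins the members on chromosomes 2 and 6. The member on chromosome 6, from 103648801 to 103649500 in the gene of the adhesion molecule Chl1, shares 246 bp at 95.5% identity with the member at Gm10800 and Gm10801, as these 100 bp outside annotated exons show, with the differing base in capitals.
Chromosome 6 member, chr6:103649164-103649263, plus strand: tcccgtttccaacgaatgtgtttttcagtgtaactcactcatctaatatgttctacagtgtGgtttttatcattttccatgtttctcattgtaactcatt
Chromosome 2 member, chr2:98666381-98666480, plus strand: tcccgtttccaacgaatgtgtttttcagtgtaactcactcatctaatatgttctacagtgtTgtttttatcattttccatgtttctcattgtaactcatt
The chromosome 6 member measured 172 and 219 in young replicates 1 and 2 and 224 and 154 in old replicates 1 and 2, with overlapping ages, unlike the chromosome 2 member. Beyond these, 6 members shared at least 500 bp at 95% identity with another member, in 4 pairs on chromosomes 1 and 17, the latter around Zfp960. More than 50% of the sequence was repeat-masked in 3 members (0.30%), against 1.88% of the eligible peaks.

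Most members were promoters. A protein-coding transcript started within 1 kb of 674 members (67.4%, 64.4% to 70.2%) against 14.0% of the eligible peaks. The others were intergenic (15.1%, against 34.9%), exonic (8.90%, against 14.8%) or intronic (8.60%, against 36.4%). The promoter share fell with density rank, from 71.0% in ranks 1 to 100 over 60% in the 1000 ranks after the members to 10.3% beyond rank 10000. A start site lay inside 672 members, and the centre of the peak was within 500 bp of it in 599 of them (89.1%), with a median of 63.5 bp downstream. Promoters with a coding gene in each direction made up 132 members and 1.18% of eligible peaks. From a coding start, 280 members were farther than 10 kb and 94 were farther than 100 kb. In old MSCs, 562 of the 674 promoter members (83.4%) were in the top 1000 of replicate 1 and 445 (66.02%) in that of replicate 2. For the 151 intergenic members these were 117 (77.5%) and 78 (51.7%), a difference that was not tested.

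**Figure D4:**
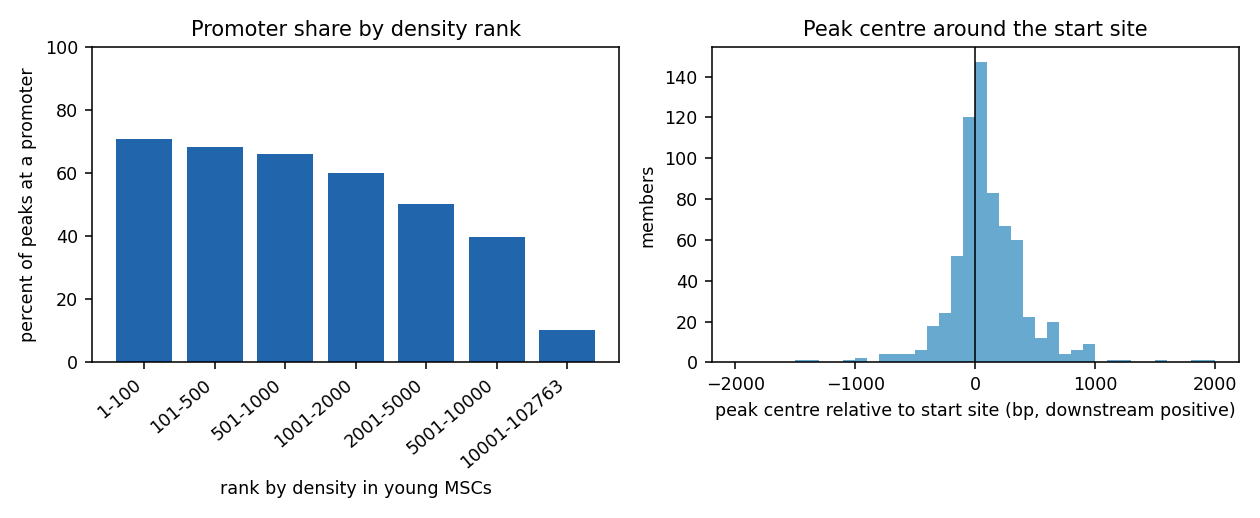
Percent of peaks within 1 kb of a protein-coding start site by rank of density in young MSCs (left), and the position of the peak centre relative to the start site inside it, in bp, downstream positive (right, 672 members). The promoter share falls from 71.0% in the first 100 ranks to 10.3% beyond rank 10000, and most centres lie within 500 bp of the start site.

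In sequence, the members were rich in GC and CpG. In the central 500 bp the median GC content was 58.2% against 46.6% of the eligible peaks, and the median CpG ratio (observed over expected from base content) was 0.696 against 0.214. A CpG ratio of at least 0.6 with a GC content of at least 50% was found in 570 members (57%) and 7.52% of eligible peaks. The difference was present at promoters and away from them: 80.3% of promoter members met both limits against 45.5% of the other promoter peaks, and 8.90% of the members away from promoters against 1.09% of eligible peaks there.

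Motifs were counted by exact letters on both strands of the central 500 bp, and a match is a description, not a bound site. The GC box GGGCGG lay in 77.6% of promoter members and 48.8% of other promoter peaks (14.4% of all eligible peaks). The CCAAT box, letters CCAAT, lay in 53.9% and 40.4% (48.7% of all), the ETS site CCGGAAG in 21.4% and 12% (3.72% of all), and the YY1 site AAGATGGCG in 3.86% and 1.87% (0.457% of all). The cAMP response element TGACGTCA lay in 3.86% and 1.64% (0.746% of all), the NRF1 site GCGCATGCG in 1.63% and 1.51% (0.322% of all), and the CTCF core AGGGGGCGC, which shares the letters GGGCG with the GC box, in 2.52% and 1.89% (0.674% of all). The letters of AP-1, TGANTCA, went the other way, in 7.42% of promoter members and 11.4% of other promoter peaks (29.0% of all eligible peaks), as did the TATA box TATAAA (6.08% and 12.8%, 25.7% of all), the TEAD letters GGAATG (16.6% and 20.8%, 30.9% of all) and the RUNX letters TGTGGT (19.6% and 24.1%, 37.6% of all).

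Away from promoters the AP-1 letters were found in 138 of the 326 members (42.3%), against 31.9% of all eligible peaks there. For TEAD the shares were 35.9% and 32.6%, for RUNX 40.5% and 39.8%, and for the GC box 16.9% and 8.64%. The 3 densest members farther than 10 kb from a coding start with AP-1 letters (capitals) in their central 200 bp, with no exon in that stretch and under 30% repeat-masked, show these sites.
Near Pfkfb3, chr2:11429850-11430049, plus strand: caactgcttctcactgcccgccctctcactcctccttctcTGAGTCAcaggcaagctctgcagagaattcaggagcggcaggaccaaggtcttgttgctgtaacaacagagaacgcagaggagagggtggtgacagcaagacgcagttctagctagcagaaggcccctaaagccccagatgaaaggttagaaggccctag
Near Lclat1, chr17:73195100-73195299, plus strand: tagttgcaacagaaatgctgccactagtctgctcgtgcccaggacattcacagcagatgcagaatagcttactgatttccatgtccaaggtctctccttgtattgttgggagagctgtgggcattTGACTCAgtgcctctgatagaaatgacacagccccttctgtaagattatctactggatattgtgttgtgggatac
Near Frmd4a, chr2:4445850-4446049, plus strand: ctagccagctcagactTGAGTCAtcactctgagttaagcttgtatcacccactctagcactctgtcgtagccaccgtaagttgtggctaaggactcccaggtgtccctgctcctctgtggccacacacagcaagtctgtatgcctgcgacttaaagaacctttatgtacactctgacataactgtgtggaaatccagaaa
They ranked 97, 136 and 148. Pfkfb3 makes the regulator of glycolysis fructose-2,6-bisphosphate, and Lclat1 is an acyltransferase of cardiolipin.

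**Figure D5:**
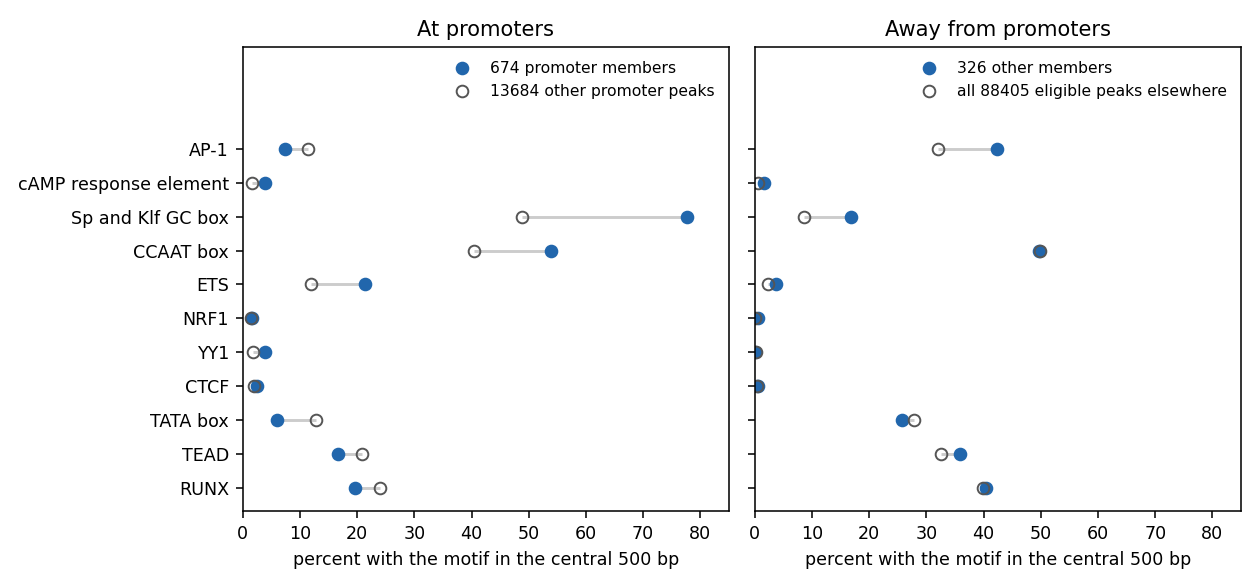
Percent of peaks with each of 11 motifs in the central 500 bp (x axis), for promoter members against other promoter peaks (left) and for the other members against all eligible peaks away from promoters (right). The GC box was found in 77.6% against 48.8% at promoters, and AP-1 in 42.3% against 31.9% away from them.

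By gene, 817 of the 13703 protein-coding genes with an eligible promoter peak (5.96%) had a member there. Zinc finger genes had the highest count of the larger lists, with 40 of 324 (12.3%), among them Zfp788, Zfp317, Zfp78 and Zkscan5. Zfp317 measured 179 and 199 in young replicates 1 and 2 and 122 and 120 in old, and Zfp78 measured 177 and 190 in young and 120 and 107 in old. Genes of RNA processing followed with 4 of 47 (8.51%): Hnrnpc and Hnrnpa1, packaging proteins of pre-mRNA, Hnrnpul2 and Snrpd2, a core protein of spliceosomal particles. Hnrnpc measured 145 and 167 in young and 92.0 and 114 in old. Proteasome subunits had 3 of 45 (6.67%: Psme2, Psmc6 and Psma2), ribosomal proteins 3 of 58 (5.17%, among them Rps29 and Rpl37), replication-dependent histones 2 of 51 (3.92%, the shared promoter of Hist1h2bp and Hist1h2an), the translation list 2 of 59 (3.39%: Eef2kmt and the stress kinase Eif2ak3) and nuclear genes of oxidative phosphorylation 2 of 73 (2.74%: Ndufb5 and Cox8a). Rps29 measured 119 and 128 in young and 78.0 and 92.9 in old, and Ndufb5, a subunit of complex I, 121 and 124 in young and 72.3 and 105 in old. Cox8a, a subunit of complex IV, measured 86.7 and 106 in young and 62.2 and 94.4 in old, so that its ages overlapped. Most lists were near the share over all genes, and no list was tested.

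No gene of the lists of MSC and stromal identity or of its lineages had a member at its promoter, beside 5.96% of all genes. Each list is short, and a difference from that share was not tested. Of the list of MSC and stromal identity 0 of 18 genes with an eligible promoter peak had a member. The same was true of 0 of 20 osteogenic, 0 of 9 adipogenic, 0 of 8 chondrogenic and 0 of 14 hypoxia genes. Of 7 blood, 4 endothelial and 5 neural and epithelial genes 0 had one. Neither did any of 6 AP-1 and immediate early or 8 cytoskeletal and TEAD target genes. The cell cycle inhibitors had 1 of 5, Cdkn2d, at the promoter shared with Kri1 (88.4 and 95.9 in young, 54.0 and 89.1 in old). In some lists many genes lay in peaks wider than the upper limit, which were not eligible. Only 6 of the 1820 autosomal peaks over 7900 bp reached the density of the lowest member. A peak over 7900 bp was found at 24 of 27 immediate early genes and AP-1 subunits with a promoter peak, at 14 of 21 cytoskeletal and TEAD target genes and at 15 of 29 stromal genes, against 8.98% of all genes. For cell cycle inhibitors it was 7 of 12, for adipogenic genes 4 of 13 and for hypoxia genes 5 of 19. In other lists it was rarer, with 2 of 22 osteogenic, 1 of 8 chondrogenic, 1 of 7 neural and epithelial, 0 of 7 blood and 0 of 4 endothelial genes. At Jun, a subunit of AP-1, the peak of 10500 bp had a density of 99.6 and 103 in young replicates 1 and 2 and 65.7 and 92.7 in old, which is above the members' limit in young MSCs, whereas the 32000 bp at Col1a1 (type I collagen) had 26.1 and 30.5 in young and 18.3 and 34.6 in old.

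The sort markers were read in the same way. Ly6a (Sca-1) lay in a peak of 8900 bp with densities of 12.7 to 16.2 over the 4 samples and Pdgfra (CD140a) in one of 15200 bp with 19.1 to 28.1. No peak lay within 1 kb of a start of Ptprc (CD45), which the sort selects against. Spi1, a factor of blood cells, had a peak of 700 bp with 12.3 to 21.2. The densities at Ly6a and Spi1 thus overlapped, and density by itself did not separate these markers. A promoter peak was found at 14864 of 20698 autosomal protein-coding genes. For the blood list it was 7 of 15 genes, for the endothelial list 4 of 8 and for the neural and epithelial list 7 of 12. For stromal genes it was 29 of 30, for osteogenic genes 22 of 24, for adipogenic genes 13 of 14 and for chondrogenic genes 8 of 8. These differences were not tested.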

How the data were processed

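The ATAC-seq peak values of old MSCs (2 samples) and young MSCs (2 samples) were analysed. The authors deposited 1 score per peak and sample, named RPKM by them and written with decimal commas. The deposited scores were whole multiples of a step per sample and did not depend on width, and are read as counts per 10000000 counts of the library. According to the paper's methods and the submitters' processing notes, reads were mapped to mm10 with bowtie2, duplicates were removed with Picard Tools, and peaks came from chromstaR, which counts in overlapping bins; the methods describe this for hypoxia- and normoxia-cultured cells. A common peak list was used, so wide domains are 1 peak, and dividing by width dilutes their summits.

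The members were found by the rule on width, autosome and mean young density. The members, gene lists and motifs were chosen with earlier results of these data known. Promoters (1 kb), exons and genes came from GENCODE vM21, sequence from the RefSeq copy of GRCm38. Old and young were compared with limma 3.58.1 in R 4.3.3 (trend and robust moderation) on log2(value + 1) after RLE factors, with Benjamini-Hochberg adjustment over all 117282 peaks and a threshold of 0.01. The fit was also run on simulated counts with a fixed dispersion and no library that stands apart. That check does not cover the spread between the old replicates. Alignments used BLAST+ 2.17.0; summaries used Python 3.11.15, pandas 2.3.3, numpy 2.4.6 and scipy 1.17.1. An exact permutation test of 2 against 2 samples cannot go below p = 0.33 (two-sided). Nothing says that samples of a group came from separate animals or cultures, so p-values measure the spread between these samples. Replicate numbers of old and young samples were not tied to a shared batch by the labels. Named peaks were the 12 densest, the 5 on each side of the limit, those past the threshold, the 5 highest and lowest ratios of old to young means, the 8 densest farther than 10 kb from a coding start, up to 4 genes per list, and the 4 lowest ranks in each old sample. Alternatives were other scalings, pseudocounts, filters, widths, member numbers, promoter limits and leaving out each sample. Added after the data were seen were limma-voom, a crossed replicate block, choices on 1 old sample and leaving out repeated members. Results for a few genes are not reported here.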

Additional observations from a re-analysis of the deposited data

How the results depend on the processing

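The count of members with lower values in old MSCs (2) became 8 on deposited values (1333 of all peaks), 9 at an adjusted p under 0.05 and 6 with limma-voom (95 of all peaks). It became 0 with equal total signal, pseudocount 0.1, the filter on weak peaks and plain moderation, beside 7, 11, 7 and 0 of all peaks. The count of higher members (0) became 4 at an adjusted p under 0.05 and 1 with limma-voom (49 of all peaks). No share over all peaks is given at an adjusted p under 0.05, so nothing is read from the counts there. Leaving out 1 sample gave 0 to 353 lower and 0 to 17 higher members, beside 0 to 6476 and 0 to 3880 of all peaks. With the replicate block the counts were 8 lower and 4 higher (907 and 362 of all peaks). With the crossed replicate block they were 24 and 5 (2197 and 1022 of all peaks). Deviations from the group mean had a correlation of -0.41 over the members between same-numbered samples. With 2 samples per group, both numbers give this same value and the crossed order gives it with the opposite sign. It therefore cannot decide whether samples were paired. The causes were not tested. The median log2 ratio over the members (-0.50) was -0.21 with RLE factors, -0.14 with equal total signal and -0.16 with quantile normalization. It kept its sign in every alternative run, among them the one without 12 mitochondrial-like, repeat-masked, ribosomal and satellite members. The promoter share (67.4%) was 63.7% for 2000 members. The share of members in the top 1000 ran from 78.4% to 83.3% in old replicate 1 and from 60.2% to 68.0% in old replicate 2. The median GC content (58.2%) was 49.1% and the CpG ratio (0.696) was 0.528 over whole peaks, and 4 instead of 6 members were mitochondrial-like at 200 bp and 90% identity. The log2 fold changes of the 5 members of highest and the 5 of lowest ratio of old to young kept their sign in 80 refits. These members were picked as the extremes of this same contrast, so their sign was largely fixed in advance. Other named members were not among these refits. Calls are not read from them, as many of the refits leave 1 sample in a group. The precision is limited by 2 samples per group, of which old replicate 2 stood apart.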

Other observations

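Beside the members, 7 peaks of chromosome X, 6 autosomal peaks over 7900 bp and 1 autosomal peak under 500 bp had a young density at or above that of the lowest member. The broad ones lay at Malat1 and Neat1, long noncoding RNAs of nuclear bodies, and, among others, at Thbs1 (thrombospondin 1), Jun and Crlf2. The 24100 bp at Thbs1 measured 124 and 160 in young replicates 1 and 2 and 70.6 and 92.0 in old replicates 1 and 2. The samples of the 2 ages did not overlap there as deposited. The peak was picked by its young density, so nothing is read from this. On chromosome X, the promoter shared by Fancb and Mospd2 measured 97.5 and 109 in young and 69.1 and 72.2 in old, and Taf1, a subunit of the transcription factor TFIID, 93.2 and 88.9 in young and 55.9 and 70.0 in old.

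The densest 1000 peaks by the mean of both old samples held 214 peaks that were no members, 106 of them at promoters (49.5%), and their median rank in young MSCs was 1418. The highest ratio among them had an intergenic peak 24397 bp from Ly6c2, on chromosome 15 from 75085301 to 75087300, which measured 41.2 and 40.3 in the young samples and 90.7 and 72.2 in the old ones.

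The promoter of the imprinted gene Peg3, shared with Usp29, ranked 96 among the members. It was picked out after its values were seen. Its density was 128 and 153 in young replicates 1 and 2 and 68.9 and 63.9 in old replicates 1 and 2, and its log2 fold change was -0.79 (SE 0.14), against a median of -0.21 over the members.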
